A study of Mus musculus with 12 samples.

Results

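The nuclear genes for subunits of oxidative phosphorylation were followed through 12 mouse tumour RNA libraries. Members were the protein-coding rows of the deposited count table whose symbol begins, case sensitive, with Nduf and a letter a, b, c, s or v followed by a number, with Uqcr, with Cox and a digit from 4 to 8 followed by a letter, or with Atp5. That rule used names and gene type only, and no measured value. It found 82 members among 45777 genes. By their names 39 belonged to complex I, 8 to complex III, 18 to complex IV and 17 to complex V, and 80 had enough counts to be tested. The 2 others, Cox8c and Cox7b2, are isoforms of cytochrome c oxidase subunits and had 0 counts in each of the 12 libraries, where 3 counts, the limit that a count of 0 allows, corresponded to 0.0422 to 0.0593 CPM, counts scaled to 1000000 per library with normalization factors.

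Oxidative phosphorylation takes place at the inner mitochondrial membrane. Complex I takes electrons from NADH, complex III passes them from ubiquinol to cytochrome c, complex IV hands them to oxygen, and complex V, the ATP synthase, uses the proton gradient that the others build. The catalytic cores of complexes I, III and IV are partly encoded by mitochondrial DNA, whereas most subunits, including the many small accessory ones, are encoded in the nucleus and imported, so both genomes must supply matching parts. MAVS, the adaptor whose genotype was varied in this study, sits on the outer membrane of the same organelle and relays signals from cytosolic RNA sensors.

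Cells of 393P, an established lung cancer line of the mouse, formed the tumours after subcutaneous injection into male 129S2/SvPasCrl mice of 8 weeks of age. The cells were MAVS knockout or MAVS reconstituted by the genotype labels. Mice received control treatment or BAY-1217389, an inhibitor of the mitotic checkpoint kinase MPS1, at 5 mg/kg 2 times a day for 2 days, and tumours were taken the day after. The 4 groups of 3 libraries are called knockout control, knockout inhibitor, reconstituted control and reconstituted inhibitor below, and the study asked how short MPS1 inhibition changes expression with and without MAVS. Sample titles name the knockout groups Luc, a term that the labels do not explain. Each genotype is its own cell population, so MAVS and any other difference between the populations cannot be told apart. The labels speak of replicates without saying that each came from another animal, so the p-values measure only the spread between these samples. In such bulk tumour RNA, fewer cells of a type and less RNA per cell cannot be told apart.

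Libraries held 52983715 to 69108411 counts. Mavs ranged from 39.4 to 45.7 CPM in the knockout libraries and from 50.1 to 85.1 CPM in the reconstituted ones, without overlap, although counts per gene do not separate an edited gene, an introduced copy and host transcripts. The reconstituted inhibitor libraries differed most from each other, with a chi-square per gene of 104 to 193 between pairs, against 32.5 to 69.2 within the other groups. For comparisons that use this group, the median over all members and the edgeR calls are therefore given with and without its replicates 1 and 3.

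The members were abundant and moved as a block from library to library. Together they made up 0.624 to 0.979% of all counts. On a log2(CPM + 0.5) scale, with each gene set against its own mean over the 12 libraries, the median member deviated by 0.24, 0.05 and -0.05 in the knockout controls and by -0.25, 0.04 and 0.10 in the knockout inhibitor libraries. In the reconstituted controls the median deviations were -0.40, -0.33 and -0.18, and in the reconstituted inhibitor libraries they were 0.62, 0.31 and -0.11. The 3 reconstituted controls thus all lay below 0. Replicates 1 and 2 of the reconstituted inhibitor group lay highest of all 12 libraries, while replicate 3 lay among the controls. The group means were 0.08 ± 0.15, -0.04 ± 0.19, -0.30 ± 0.11 and 0.27 ± 0.37 in the same order (SD, n = 3). Reconstituted inhibitor replicate 1 held the highest value for 74 of the 80 members tested, and reconstituted control replicate 1 held the lowest for 49.

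**Figure D1:**
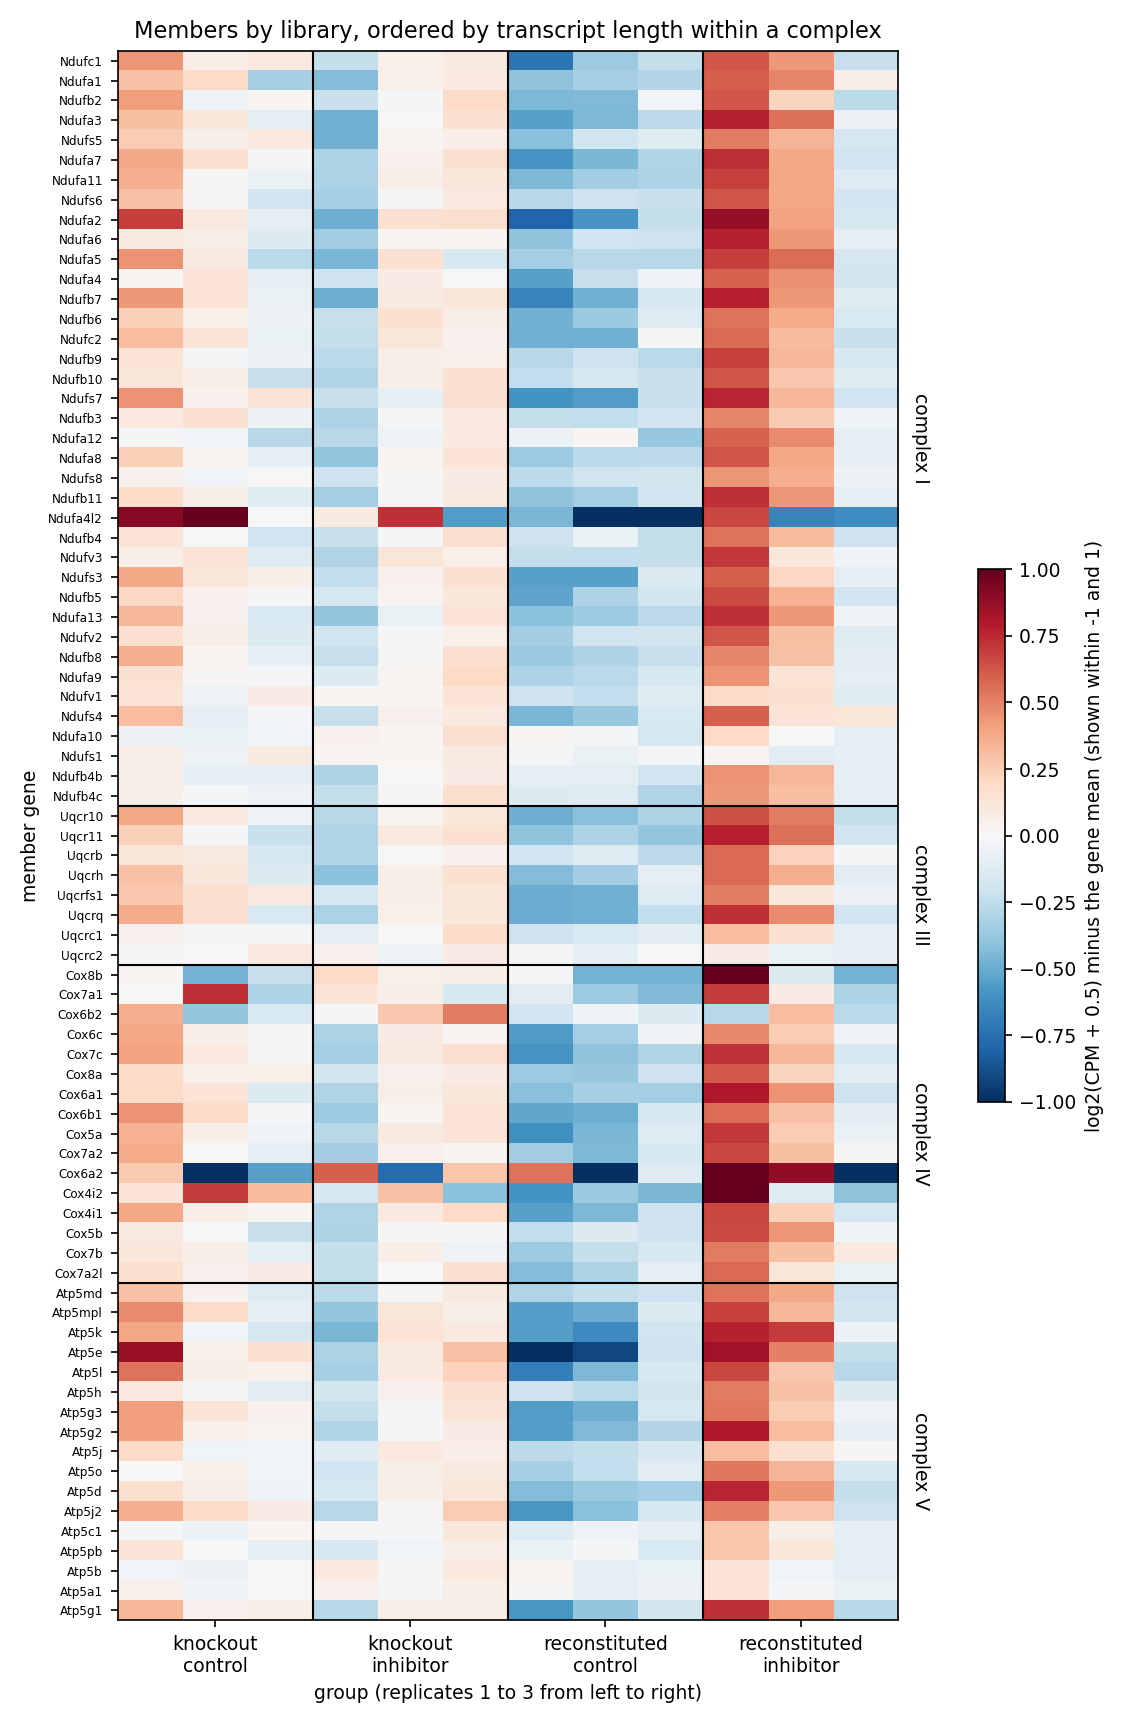
Each row is 1 member (79 of the 80 tested are drawn), ordered by transcript length (short at the top, members without a length last) within its complex, each column 1 library, and the colour is log2(CPM + 0.5) minus the gene's mean over 12 libraries, shown between -1 and 1. Most rows share the same pattern: of the 80 members, 79 lay above their mean in reconstituted inhibitor replicate 1 and 4 did so in reconstituted control replicate 1.

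The 4 complexes could hardly be told apart in this pattern. In reconstituted inhibitor replicate 1 the median deviation was 0.62 for complex I, 0.57 for complex III, 0.67 for complex IV and 0.53 for complex V. In reconstituted control replicate 1 it was -0.40, -0.41, -0.39 and -0.43 in that order. Within the reconstituted inhibitor group the complexes ran from these levels in replicate 1 down to -0.12, -0.10, -0.14 and -0.14 in replicate 3, a wider spread than that between complexes of any library.

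**Figure D2:**
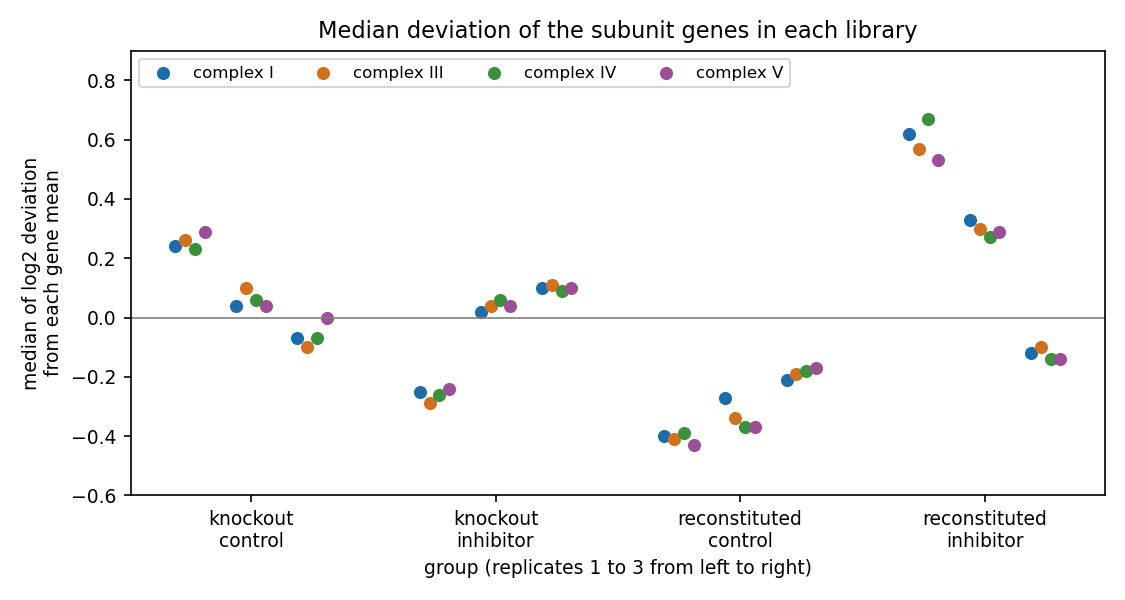
Each point is the median log2 deviation of the members of 1 complex in 1 library (vertical axis), with libraries by group and replicate on the horizontal axis. The 4 colours lie close together in every library, while libraries of the reconstituted inhibitor group run from 0.67 down to -0.14.

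In the inhibitor effect in reconstituted tumours nearly all members differed in 1 direction, and none of them passed the test. Of 80 members, 79 were higher in the reconstituted inhibitor group than in the reconstituted controls, with a median log2 difference of 0.60 and a range from -0.02 for Ndufs1 to 3.58 for Cox8b, where the median over all 17885 genes tested was -0.01. The edgeR quasi-likelihood test with Benjamini-Hochberg adjustment over all genes called 0 members, and 0% of all genes, at an adjusted p below 0.05, the smallest adjusted p being 0.0729. At an unadjusted p below 0.05, 67 members were higher, against 17.6% of all genes. DESeq2 called 63 of the 78 members to which it gave an adjusted p, all higher, against 13.7% of all genes. The 3 inhibitor libraries all lay above the 3 controls for 51 members, against 14.7% of all genes.

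These counts turned on single libraries. Without reconstituted inhibitor replicate 3, 70 of 80 members were called as higher by edgeR in this comparison, with a median of 0.78, and 15.8% of all genes were called as higher too. Without replicate 1 of that group 0 members were called and the median was 0.41.

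By complex the inhibitor effect in reconstituted tumours had medians of 0.58 for I and III, 0.68 for IV and 0.60 for V. The 3 members with the smallest p were Cox7b, Ndufa3 and Atp5g2. Cox7b, a small accessory subunit of cytochrome c oxidase, had 103, 100 and 89.6 CPM in the knockout controls, 80.9, 101 and 92.4 CPM in the knockout inhibitor libraries, 74.6, 81.3 and 85.9 CPM in the reconstituted controls and 138, 118 and 103 CPM in the reconstituted inhibitor libraries. The 2 reconstituted groups did not overlap, whereas the lowest reconstituted inhibitor library was level with the highest knockout control. The log2 difference of Cox7b was 0.57 ± 0.12 (SE, edgeR adjusted p = 0.0729). Ndufa3, an accessory subunit of complex I, had 41.7, 36.8 and 31.6 CPM in knockout controls, 24.2, 33.8 and 37.6 CPM in knockout inhibitor libraries, 23.1, 24.6 and 28.2 CPM in reconstituted controls and 58.2, 49.9 and 32.5 CPM in reconstituted inhibitor libraries, a difference within the reconstituted tumours of 0.89 ± 0.21 (SE). Atp5g2, a gene of the c subunit whose ring rotates in ATP synthase, had 172, 133 and 131 CPM in knockout controls, 105, 127 and 136 CPM in knockout inhibitor libraries, 87.6, 95.1 and 105 CPM in reconstituted controls and 225, 160 and 122 CPM in reconstituted inhibitor libraries, a difference within the reconstituted tumours of 0.82 ± 0.20 (SE). For both genes replicate 3 of the inhibitor group stood just above the controls. The adjusted p of each was 0.0729 with edgeR.

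The MAVS effect in control tumours ran the other way. Reconstituted controls lay below knockout controls for 79 of 80 members, with a median log2 difference of -0.41 and a range from -2.51 for Ndufa4l2 to 0.34 for Cox6a2, while the median of all genes was 0.00. With edgeR 0 members were called, against 0.14% of all genes (smallest adjusted p among members 0.153). At an unadjusted p below 0.05, 40 members were lower, against 9.89% of all genes. DESeq2 called 8 of 78 members lower, against 2.82% of all genes: Ndufa4l2, Ndufs3, Ndufs7, Uqcrfs1, Cox6b1, Atp5e, Atp5g3 and Atp5j2. The 3 reconstituted controls all lay below the 3 knockout controls for 58 members, against 15.5% of all genes. Complex medians were -0.37 for I, -0.39 for III, -0.45 for IV and -0.44 for V.

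Both comparisons use the reconstituted control libraries, so a low level there enters each of them with opposite sign. Atp5g3, another gene of the c subunit, had 204, 168 and 157 CPM in knockout controls and 103, 108 and 135 CPM in reconstituted controls, without overlap. In the reconstituted inhibitor libraries Atp5g3 had 221, 181 and 147 CPM, with replicate 2 inside the range of the knockout controls, replicate 1 above it and replicate 3 below it. Its difference was -0.61 ± 0.17 for MAVS in controls (SE, edgeR adjusted p = 0.161) and 0.66 ± 0.17 for the inhibitor in reconstituted tumours (SE, edgeR adjusted p = 0.0729). Uqcrfs1, the Rieske iron-sulfur protein of complex III, had 109, 101 and 97.0 CPM in knockout controls, 63.8, 64.6 and 82.3 CPM in reconstituted controls and 129, 97.3 and 86.8 CPM in reconstituted inhibitor libraries. Its difference for MAVS in controls was -0.54 ± 0.15 (SE, edgeR adjusted p = 0.161).

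Under MPS1 inhibition, 73 of 80 members were higher in reconstituted than in knockout tumours, with a median log2 difference of 0.34. With edgeR 0 members were called, against 0.649% of all genes, and the smallest adjusted p was 0.128, for Cox7b (0.39 ± 0.12, SE). At an unadjusted p below 0.05, 16 members were higher, against 10.7% of all genes. DESeq2 called 1 of 80 members, Cox7b, against 4.34% of all genes as higher. Groups were fully apart for 2 members, against 10.9% of all genes. These shares of members lay near or below those of all genes in the last 2 counts. Without reconstituted inhibitor replicate 3, 36 members were called as higher by edgeR, against 7.24% of all genes, and the median was 0.51. Without replicate 1 of that group the median was 0.14 with 0 called.

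The interaction asks whether the inhibitor effect differed between the genotypes. It was above 0 for 76 of 80 members, with a median of 0.74 log2 units, and 0 members and 0% of all genes were called with edgeR (smallest adjusted p 0.144). At an unadjusted p below 0.05, 60 members were higher, against 13.6% of all genes, and DESeq2 called 35 of 77 members, against 5.54% of all genes as higher. The smallest p belonged to Cox7b at 0.66 ± 0.17, Atp5g3 at 0.91 ± 0.24 and Atp5g2 at 1.07 ± 0.28 (SE, edgeR adjusted p = 0.144 each). Without reconstituted inhibitor replicate 3, 64 members were called by edgeR, against 10.7% of all genes, with a median of 0.92. Without replicate 1 the median was 0.56 with 0 called.

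In knockout tumours the inhibitor had no called member. The median difference was -0.12, with 13 members higher and 67 lower, and edgeR called 0 members and 0% of all genes. At an unadjusted p below 0.05 there were 0 members, against 1.71% of all genes in either direction, and DESeq2 called 0 of 80 members, against 0.0109% of all genes. The inhibitor libraries all lay above the controls for 3 members, against 4.47% of all genes. The 3 smallest p belonged to Ndufa4l2 at -1.31 ± 0.61, Ndufa10 at 0.13 ± 0.09 and Atp5g3 at -0.24 ± 0.17 (SE, edgeR adjusted p = 1 each). The median was -0.03 without knockout control replicate 1 and -0.01 without knockout inhibitor replicate 1.

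The effects averaged over the other factor had no called member. The MAVS effect averaged over treatments had a member median of -0.04, with 30 higher and 50 lower, and 0 called with edgeR, against 1.56% of all genes. Without reconstituted inhibitor replicate 1, 5 were higher and 75 lower (median -0.10). Without replicate 3 of that group, 51 were higher and 29 lower (median 0.04). In these fits 0 members were called, against 1.24% and 1.78% of all genes. At an unadjusted p below 0.05 there was 1 member, Ndufa4l2 (-1.38 ± 0.43, SE, edgeR adjusted p = 0.151), against 15.1% of all genes in either direction, and DESeq2 called 0 members, against 5.71% of all genes. The inhibitor effect averaged over genotypes had a median of 0.24, with 78 members higher and 2 lower. Here edgeR called 0 members and 0% of all genes, with 19 members higher at an unadjusted p below 0.05, against 4.13% of all genes, and DESeq2 called 0 members and 0% of all genes as higher. The median was 0.15 without reconstituted inhibitor replicate 1 and 0.33 without replicate 3. In these fits 0 members were called, against 0% and 0.0164% of all genes. The smallest p belonged to Cox7b at 0.24 ± 0.08 (SE, edgeR adjusted p = 0.522).

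**Figure D3:**
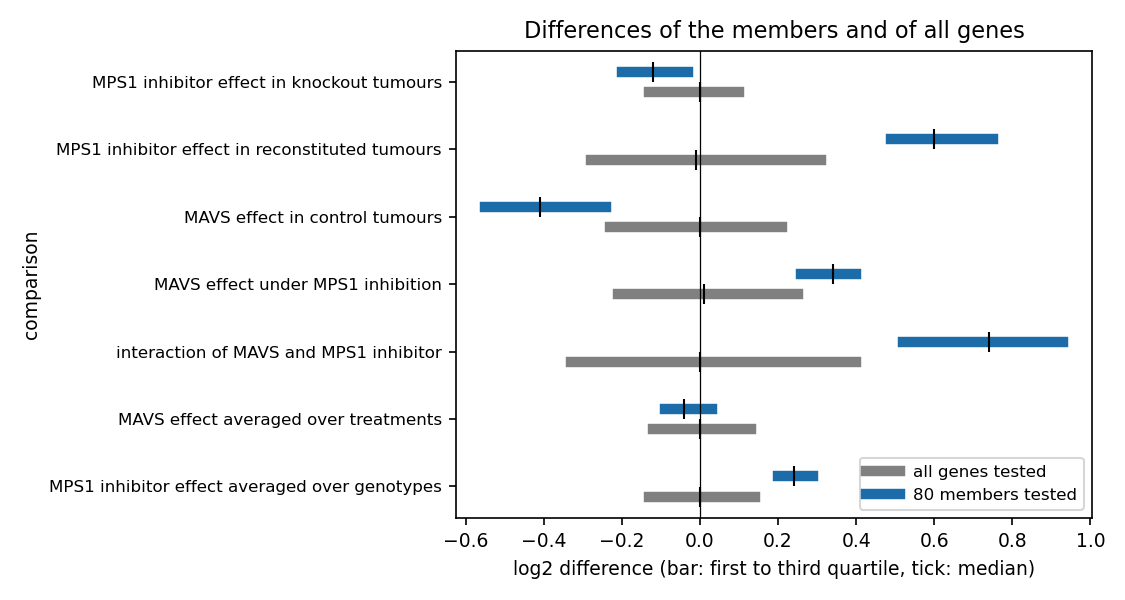
For each of the 7 comparisons (vertical axis) the blue bar spans the interquartile range of the log2 difference over the 80 members tested and the grey bar the same over all genes tested, with the median as a tick. The member bar lies right of 0 for the inhibitor effect in reconstituted tumours (median 0.60) and left of 0 for the MAVS effect in controls (median -0.41), whereas the grey bars are centred near 0.

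Within complex I the core subunits Ndufs1 and Ndufv1 varied little, whereas other core subunits varied more. The coefficients of variation (CV, SD divided by mean, over 12 libraries) were 4.55% for Ndufs1 and 10.1% for Ndufv1. For the core subunits Ndufs8, Ndufv2, Ndufs3 and Ndufs7 they were 16.2%, 20.7%, 23.5% and 29.1%, and for the accessory Ndufa10 7.27%. Ndufs1, the largest subunit of the peripheral arm and a carrier of iron-sulfur clusters, had 100, 92.4 and 101 CPM in knockout controls, 97.7, 97.0 and 102 CPM in knockout inhibitor libraries, 94.0, 91.3 and 95.0 CPM in reconstituted controls and 97.5, 88.6 and 90.6 CPM in reconstituted inhibitor libraries. In each comparison of 2 groups that share a genotype or a treatment its libraries overlapped, while the knockout inhibitor libraries lay above the reconstituted controls. Ndufv1, which binds NADH and the flavin, differed by 0.27 ± 0.09 for the inhibitor in reconstituted tumours (SE, edgeR adjusted p = 0.0831). The largest difference in that comparison was that of the accessory subunit gene Ndufa2, which had 25.3, 29.2 and 37.4 CPM in reconstituted controls and 81.1, 58.5 and 39.6 CPM under the inhibitor, or 0.96 ± 0.29 (SE, edgeR adjusted p = 0.0739). Its inhibitor libraries all lay above the controls, replicate 3 only slightly. Ndufa10, another accessory subunit, differed by 0.10 ± 0.09 in the same comparison and was the member nearest 0 for MAVS in controls, at -0.00 ± 0.09 (SE).

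Per length of transcript, the highest complex I levels over the 12 libraries were those of Ndufs6 at 147 CPM per kilobase and of Ndufa4 at 144 CPM per kilobase. Ndufa4 is named for complex I but its protein is now assigned to complex IV. Ndufb4b and Ndufb4c, which resemble Ndufb4, had no transcript length in the annotation used. They had 1.83 to 3.42 CPM and 2.15 to 3.89 CPM over the libraries and Ndufb4 had 28.9 to 49.7 CPM, values that are not corrected for length. Their counts are uncertain, since the labels do not say how reads shared among these copies were assigned.

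Core subunits differed in how much they varied in complex III too. Uqcrc2, a core protein, had 104, 105 and 112 CPM in knockout controls, 108, 102 and 111 CPM in knockout inhibitor libraries, 104, 98.2 and 105 CPM in reconstituted controls and 111, 99.9 and 99.4 CPM in reconstituted inhibitor libraries, with a CV of 4.54%, the lowest of the 80 members. Its groups overlapped in each comparison of 2 groups. Its partner Uqcrc1 differed by 0.29 ± 0.10 for the inhibitor in reconstituted tumours (SE, edgeR adjusted p = 0.0892), and Uqcrfs1 by 0.57 ± 0.15 (SE, edgeR adjusted p = 0.0729). Larger values were found for the small subunits Uqcr11 at 0.81 ± 0.22, Uqcrq at 0.79 ± 0.21 and Uqcr10 at 0.77 ± 0.20 (SE, edgeR adjusted p = 0.0729 each). For MAVS in controls Uqcr10 had the largest negative difference of the complex, -0.57 ± 0.20 (SE). Per length, Uqcrh, the hinge protein, stood highest at 221 CPM per kilobase and Uqcrb at 212 CPM per kilobase, and Uqcrq lowest at 53.2 CPM per kilobase. The place of Uqcrq rests on a length of 1521 bases, a median over annotated transcripts, and is uncertain to that extent. Without correction for length its mean was 81 CPM, above Uqcr10 at 49.6 CPM and Uqcr11 at 64.6 CPM.

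Complex IV held the most abundant accessory subunits and the widest range. Cox4i1, the common form of a regulatory subunit, had 363, 289 and 281 CPM in knockout controls, 225, 295 and 319 CPM in knockout inhibitor libraries, 191, 203 and 239 CPM in reconstituted controls and 440, 328 and 245 CPM in reconstituted inhibitor libraries. Reconstituted controls lay below knockout controls and reconstituted inhibitor libraries, the nearest pair of values in the latter case being 239 and 245 CPM. The difference for the inhibitor in reconstituted tumours was 0.68 ± 0.20 (SE, edgeR adjusted p = 0.0738). Cox5a and Cox5b, which bind the mitochondrially encoded core, differed by 0.72 ± 0.20 and 0.59 ± 0.16 (SE, edgeR adjusted p = 0.0729 each). For MAVS in controls they had -0.52 ± 0.20 and -0.16 ± 0.16 (SE, edgeR adjusted p = 0.211 and 0.609). Cox7a2l, a factor that helps to join complexes III and IV, differed by 0.51 ± 0.16 for the inhibitor in reconstituted tumours (SE, edgeR adjusted p = 0.0762).

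In ATP synthase the large subunits of the catalytic head were among those that differed least. Atp5b, the catalytic beta subunit and the member with the highest level per length (384 CPM per kilobase), had 717, 702 and 733 CPM in knockout controls, 787, 740 and 784 CPM in knockout inhibitor libraries, 750, 690 and 700 CPM in reconstituted controls and 809, 719 and 690 CPM in reconstituted inhibitor libraries. All groups but the knockout ones overlapped: the 3 knockout inhibitor libraries lay above the 3 knockout controls, by 0.10 ± 0.08 (SE, edgeR adjusted p = 1). For the inhibitor in reconstituted tumours the beta subunit differed by 0.05 ± 0.08, the alpha subunit Atp5a1 by 0.07 ± 0.08 and the gamma subunit Atp5c1 by 0.18 ± 0.09 (SE, edgeR adjusted p = 0.681, 0.564 and 0.203). The small subunits of the head and stalk had larger values, Atp5d (delta) with 0.76 ± 0.19 and Atp5e (epsilon) with 1.14 ± 0.33 (SE, edgeR adjusted p = 0.0729 each).

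Atp5e also had the largest negative difference of complex V for MAVS in controls. It had 77.7, 44.1 and 47.4 CPM in knockout controls, 19.4, 22.5 and 36.8 CPM in reconstituted controls and 76.9, 60.6 and 36.1 CPM in reconstituted inhibitor libraries. Replicate 3 of the reconstituted inhibitor group lay within the reconstituted controls, and the knockout controls lay above the reconstituted ones. The difference was -1.10 ± 0.33 (SE, edgeR adjusted p = 0.169). Atp5k, the e subunit at the dimer interface, differed by 0.97 ± 0.24 for the inhibitor in reconstituted tumours (SE, edgeR adjusted p = 0.0729). Atpif1, the inhibitor protein of ATP synthase, falls outside the name rule and differed by 0.51 ± 0.17 in the same comparison (SE, edgeR adjusted p = 0.0834).

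Several subunits exist as a common form and a form typical of certain tissues or of low oxygen. Ndufa4l2, a relative of Ndufa4 that is induced under hypoxia, had 17.9, 51.6 and 9.32 CPM in knockout controls, 9.83, 15.8 and 6.13 CPM in knockout inhibitor libraries, 6.62, 3.45 and 3.82 CPM in reconstituted controls and 15.1, 5.67 and 5.85 CPM in reconstituted inhibitor libraries. Knockout controls lay above the reconstituted controls but spanned a wide range, with replicate 2 far above the others. The difference for MAVS in controls was -2.51 ± 0.64 (SE, edgeR adjusted p = 0.153), and -1.56 without that replicate. Its CV over the 12 libraries was 105%. Ndufa4 itself had 87.4, 94.4 and 81.2 CPM in knockout controls and 59.0, 73.5 and 83.4 CPM in reconstituted controls, a difference of -0.28 ± 0.18 (SE, edgeR adjusted p = 0.416).

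Among the glycolysis and hypoxia genes listed alongside, 20 of 22 were lower in reconstituted controls than in knockout controls (median -0.48), and 20 of 22 were higher under the inhibitor in reconstituted tumours (median 0.45), with 0 called by edgeR in either. In the MAVS effect averaged over treatments, Egln3, an oxygen-sensing hydroxylase, was called lower at -1.59 ± 0.34 (SE, edgeR adjusted p = 0.0432). It was the only gene of the 22 called there, against 1.56% of all genes in either direction. The part of oxygen supply in the Ndufa4l2 values was not tested.

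Cox6a2 and Cox8b, the muscle forms of Cox6a1 and Cox8a, varied most of all members, with CVs of 167% and 203%. Cox6a2 had 2.27, 0.438 and 1.08 CPM in knockout controls, 3, 0.851 and 2.31 CPM in knockout inhibitor libraries, 2.86, 0.338 and 1.60 CPM in reconstituted controls and 19.9, 3.78 and 0.303 CPM in reconstituted inhibitor libraries. Its highest and its lowest value thus both came from the reconstituted inhibitor group. The summed level of 15 skeletal muscle markers was 171 to 648 CPM in knockout controls, 369 to 1090 CPM in knockout inhibitor libraries, 129 to 1020 CPM in reconstituted controls and 242 to 3440 CPM in reconstituted inhibitor libraries, with 3440 CPM in replicate 1 and 242 CPM in replicate 3 of the last group, where Cox6a2 was highest and lowest. In the inhibitor effect in reconstituted tumours all 15 muscle markers were higher (median 1.93) and 0 were called with edgeR. Cox6a2 differed by 2.33 ± 1.16 (SE, edgeR adjusted p = 0.186), and by 0.36 without reconstituted inhibitor replicate 1. Cox8b, with 0 counts in 4 libraries and 109 in reconstituted inhibitor replicate 1, differed by 3.58 ± 1.69 (SE, edgeR adjusted p = 0.165) and by 0.09 without that library. The part of muscle tissue in these values was not tested.

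The other tissue forms were scarce as well. Cox4i2, the lung form of Cox4i1, had 1.88 CPM per kilobase over the 12 libraries against 377 CPM per kilobase for Cox4i1. Cox7a1, the heart and muscle form of Cox7a2, had 2.36 against 77.0 CPM per kilobase, and Cox6b2, the testis form of Cox6b1, had 0.980 against 196 CPM per kilobase. Cox6b2 was the only member of complex IV that was lower in reconstituted than in knockout tumours under the inhibitor, at -0.62 ± 0.47 (SE, edgeR adjusted p = 0.465). The common forms differed among themselves by little in the inhibitor effect in reconstituted tumours: Cox6a1 had 0.77 ± 0.21, Cox6b1 0.66 ± 0.19, Cox7a2 0.68 ± 0.18 and Cox8a 0.59 ± 0.15 (SE).

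**Figure D4:**
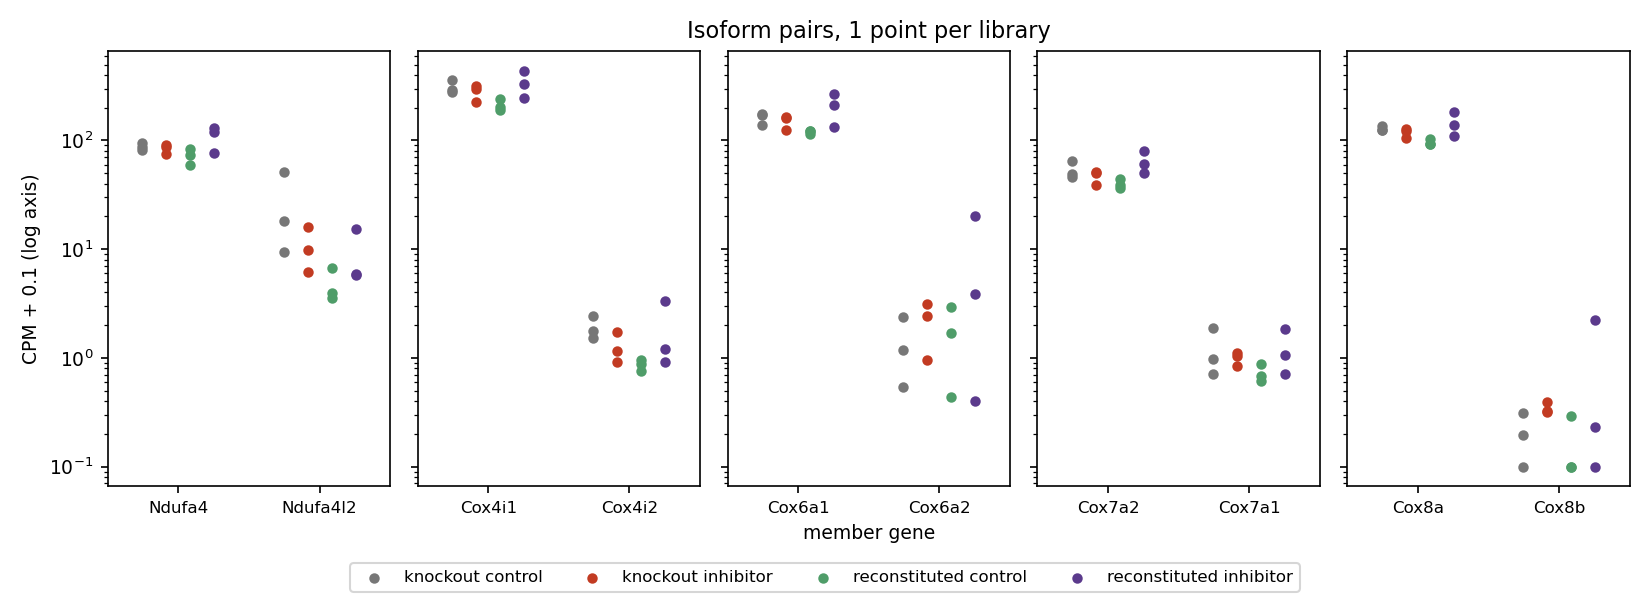
Each panel sets the common form of a subunit (left) beside its tissue or hypoxia form (right), with 1 point per library as CPM + 0.1 on a log axis and 1 colour per group. Cox6a2 and Cox8b each show 1 reconstituted inhibitor library far above the rest, 19.9 CPM for Cox6a2, while Ndufa4l2 is spread most in the knockout controls.

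The members that varied least had long transcripts. Members had a median transcript length of 729 bases, from 315 for Ndufc1 to 2661 for Ndufs1, in 78 of 80 members with a length, against 2860 bases over 14435 protein-coding genes. The 5 members of lowest CV, Uqcrc2, Ndufs1, Atp5a1, Atp5b and Ndufa10, at 4.54 to 7.27%, had transcripts of 1896 to 2661 bases. Over members with a mean of at least 5 CPM, the median CV was 24.3% for 50 members up to 1000 bases and 18.1% for 23 longer ones.

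Genes that are not members followed length in the same direction. For the inhibitor effect in reconstituted tumours the 27 members up to 600 bases had a median of 0.73 against 0.61 for 168 other genes of that length. The 28 members above 600 and up to 1000 bases had 0.63 against 0.51 for 738 other genes, and the 19 members above that and up to 2000 bases had 0.55 against 0.24 for 3289 others. The 4 members above 2000 and up to 4000 bases had 0.08 against -0.03, and 4145 genes above 4000 bases, none of them a member, had -0.27. For the MAVS effect in controls the member medians from the shortest bin up were -0.46, -0.39, -0.28 and -0.06, and those of other genes -0.44, -0.29, -0.13 and 0.02. Members thus lay as far from 0 as other genes of their length, or farther, in both comparisons, which was not tested.

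**Figure D5:**
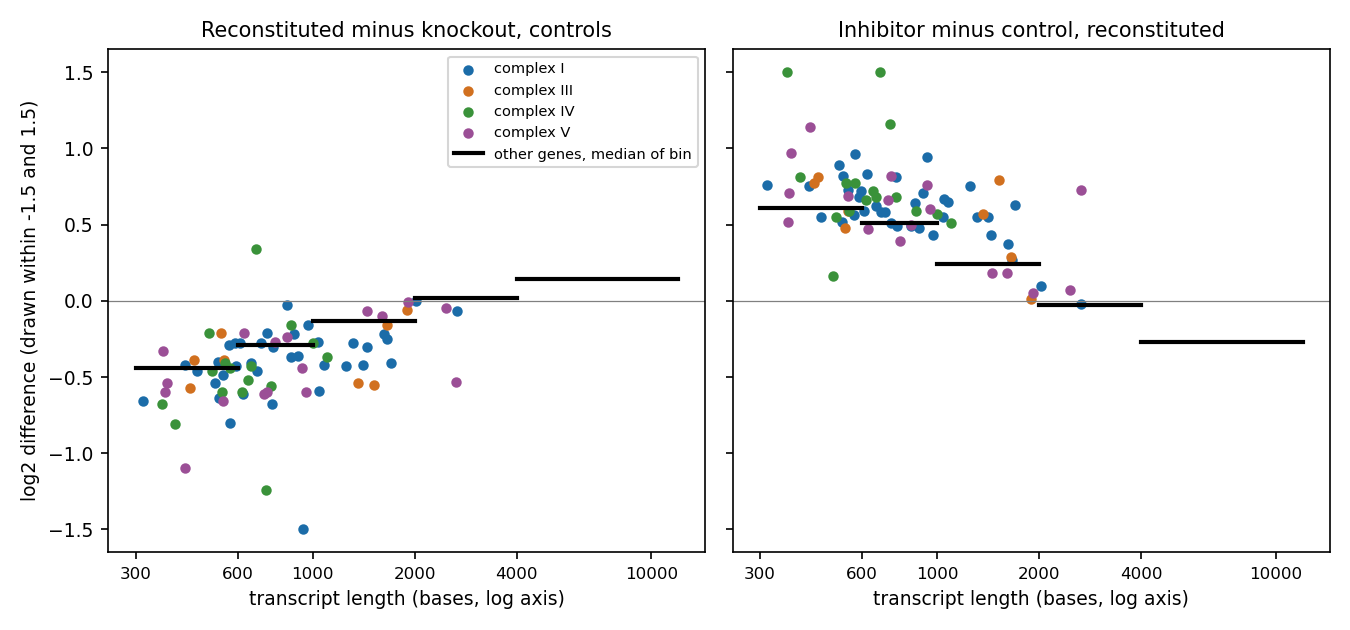
Each point is 1 of 78 members, with its transcript length on a log axis and its log2 difference (drawn within -1.5 and 1.5) for MAVS in controls on the left and for the inhibitor in reconstituted tumours on the right, and black lines give the median of other genes in each length bin. Points and lines fall together from short to long transcripts on the right, from 0.73 and 0.61 in the shortest bin to 0.08 and -0.03 above 2000 bases, and rise together on the left.

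Spearman's rho between length and the log2 difference, across genes that share the same libraries, was -0.51 over 78 members and -0.56 over 14435 genes for the inhibitor in reconstituted tumours. It was 0.46 and 0.38 for MAVS in controls. The libraries showed it singly: non-member genes up to 600 bases had median deviations of 0.42, 0.24 and -0.13 in the reconstituted inhibitor libraries, where the members of that length had 0.68, 0.39 and -0.18. An exception by annotated length was Atp5g1, another gene of the c subunit, which differed by 0.73 for the inhibitor in reconstituted tumours. Its length of 2655.5 bases is a median over annotated transcripts, whichever of them were expressed here. Atp5g2 and Atp5g3, of the same subunit, had 731 and 718.5 bases, so the place of Atp5g1 among the long transcripts is uncertain.

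Once the trend of each library on length was removed, an alternative chosen after seeing the data, the member medians shrank to 0.18 for the inhibitor in reconstituted tumours, -0.11 for MAVS in controls and 0.21 for the interaction, with 0 members called. In that fit Cox7b differed by 0.21 ± 0.06, Ndufa3 by 0.34 ± 0.09, Atp5g2 by 0.35 ± 0.09 and Atp5b by -0.07 ± 0.07 for the inhibitor in reconstituted tumours (SE, edgeR adjusted p = 0.103, 0.102, 0.102 and 0.540). What made short and long transcripts differ between libraries was not tested.

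Promoters are shown for 5 members chosen to span the responses. Cox7b had the smallest p, and Atp5g3 and Cox6a1 had differences of 0.66 and 0.77 for the inhibitor in reconstituted tumours. Uqcrc1 and Atp5b are core subunits with smaller differences in that comparison. Sequences run from 250 bases before to 50 bases after a transcription start, 5′ to 3′ on the strand of the gene. They are from RefSeq on GRCm38.p6, a release of the build GRCm38 named in the submitters' processing notes. Only the first listed promoter of each gene was used, here and in the shares below, so other starts were not searched. For Atp5g3 that window lies inside the annotated gene, chr2:73908447-73912464. Capitals mark matches to binding motifs of factors known to act on such genes. The motifs were GCGCATGC (NRF1 core), CCGGAAG (ETS factors such as GABP), AANATGGCG (YY1), TCAAGGTCA (oestrogen-related receptors, ERR) and ACGTG (hypoxia response core), each searched on both strands.
Cox7b (chrX:106015450-106015749, plus strand): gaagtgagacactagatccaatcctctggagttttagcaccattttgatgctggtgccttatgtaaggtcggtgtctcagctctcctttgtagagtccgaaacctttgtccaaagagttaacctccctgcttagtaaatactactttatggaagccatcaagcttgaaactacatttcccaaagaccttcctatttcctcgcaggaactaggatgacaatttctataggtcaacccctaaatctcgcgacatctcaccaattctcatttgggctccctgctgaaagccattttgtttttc
Atp5g3 (chr2:73911277-73911576, minus strand): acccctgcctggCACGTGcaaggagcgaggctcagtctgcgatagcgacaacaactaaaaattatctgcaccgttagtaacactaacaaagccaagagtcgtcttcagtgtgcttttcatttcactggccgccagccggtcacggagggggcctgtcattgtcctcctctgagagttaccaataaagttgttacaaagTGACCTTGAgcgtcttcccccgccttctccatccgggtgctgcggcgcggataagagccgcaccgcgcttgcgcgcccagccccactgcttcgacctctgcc
Cox6a1 (chr5:115348909-115349208, minus strand): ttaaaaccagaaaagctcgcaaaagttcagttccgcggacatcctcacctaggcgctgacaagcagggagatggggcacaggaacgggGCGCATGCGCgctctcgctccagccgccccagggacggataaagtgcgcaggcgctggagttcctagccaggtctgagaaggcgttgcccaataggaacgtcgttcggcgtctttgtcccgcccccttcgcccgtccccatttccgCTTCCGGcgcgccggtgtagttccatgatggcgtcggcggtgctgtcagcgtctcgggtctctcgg
Uqcrc1 (chr9:108936398-108936697, plus strand): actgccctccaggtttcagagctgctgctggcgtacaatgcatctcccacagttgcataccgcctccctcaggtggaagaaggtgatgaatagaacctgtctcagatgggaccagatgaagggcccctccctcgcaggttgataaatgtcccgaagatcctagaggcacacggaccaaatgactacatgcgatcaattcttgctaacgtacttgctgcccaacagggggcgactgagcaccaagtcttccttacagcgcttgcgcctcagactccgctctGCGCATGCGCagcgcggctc
Atp5b (chr10:128083057-128083356, plus strand): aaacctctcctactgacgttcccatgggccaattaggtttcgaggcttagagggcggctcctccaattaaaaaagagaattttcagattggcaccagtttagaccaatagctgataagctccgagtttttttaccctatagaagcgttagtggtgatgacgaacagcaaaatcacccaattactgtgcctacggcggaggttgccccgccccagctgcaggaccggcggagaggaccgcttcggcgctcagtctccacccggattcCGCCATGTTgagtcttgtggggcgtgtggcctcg
Cox7b holds none of the 5 motifs in this window. Atp5g3 holds the ERR motif, on the other strand, and the hypoxia core on both strands of 1 palindrome. Cox6a1 and Uqcrc1 each hold the NRF1 core on both strands, overlapping in its palindromic form, and Cox6a1 also an ETS match, while Atp5b holds a YY1 match just after its start.

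Over the 66 members with a RefSeq promoter, the NRF1 core was found in 9 (13.6%, against 2.80% of 27025 genes), the ETS motif in 14 (21.2% against 9.12%), the YY1 motif in 8 (12.1% against 2.51%), the ERR motif in 1 (1.52% against 0.407%) and the hypoxia core in 16 (24.2% against 19.7%). The palindromic form of the NRF1 motif was found in 5 members: Atp5g2, Atp5k, Cox6a1, Ndufa11 and Uqcrc1. In the inhibitor effect in reconstituted tumours these held both a large difference, 0.97 for Atp5k, and a small one, 0.29 for Uqcrc1. A match is a run of letters and not a measured binding site.

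Among the regulators of mitochondrial biogenesis 0 were called with edgeR for the inhibitor in reconstituted tumours or for MAVS in controls. Esrra, which encodes an ERR factor, had 40.7, 39.5 and 39.7 CPM in knockout controls, 32.3, 38.4 and 36.0 CPM in knockout inhibitor libraries, 30.5, 27.4 and 32.8 CPM in reconstituted controls and 49.1, 46.1 and 31.4 CPM in reconstituted inhibitor libraries. The reconstituted inhibitor libraries overlapped the reconstituted controls through replicate 3. Esrra differed by 0.48 ± 0.15 for the inhibitor in reconstituted tumours and by -0.40 ± 0.15 for MAVS in controls (SE, edgeR adjusted p = 0.0747 and 0.204). Nrf1, the factor of the NRF1 motif, differed by 0.01 ± 0.07 and 0.06 ± 0.07, and Tfam, which maintains mitochondrial DNA, by -0.06 ± 0.07 in both comparisons (SE). Ppargc1a, a coactivator of these programmes, was scarce at 0.487 to 1.10 CPM and differed by -0.22 ± 0.33 and 0.11 ± 0.33 (SE). Over the whole list of 13 biogenesis regulators tested the medians were -0.02 and 0.08.

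Other parts of the respiratory system were read from lists of the same pathway, in which 0 genes were called with edgeR for the inhibitor in reconstituted tumours or for MAVS in controls. Complex II, succinate dehydrogenase, has only nuclear subunits, and 3 of its 4 genes were higher under the inhibitor in reconstituted tumours (median 0.43): Sdhd by 0.51 ± 0.14, Sdhc by 0.44 ± 0.15 and Sdhb by 0.42 ± 0.14 (SE, edgeR adjusted p = 0.0729, 0.0834 and 0.0802). Sdha, its flavoprotein, had -0.10 ± 0.08 (SE, edgeR adjusted p = 0.354). Of 8 subunits and electron carriers outside the name rule, 6 were higher (median 0.11), among them Cyc1, the cytochrome of complex III, at 0.16 ± 0.10 and Cycs, cytochrome c, at 0.14 ± 0.10 (SE). The medians of these lists were -0.33 and -0.01 for MAVS in controls.

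The assembly factors had medians nearer 0 than the subunits they help to join. In the inhibitor effect in reconstituted tumours 9 of 14 factors of complex I were higher (median 0.11) and 20 of 26 factors of complexes III, IV and V (median 0.22). Their medians were -0.04 and -0.16 for MAVS in controls. The proteins of the mitochondrial ribosome, which translates the mitochondrially encoded subunits, were higher in 72 of 78 cases (median 0.34), and for MAVS in controls 66 of 78 were lower (median -0.21). The enzymes of the TCA cycle, which supply the NADH, were split evenly with 8 of 16 higher (median 0.01) and had a median of 0.02 for MAVS in controls. The difference between these lists and the members was not tested. The list medians are not adjusted for transcript length, which the differences of members and other genes followed.

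The 13 mitochondrially encoded subunits, partners of the members in complexes I, III, IV and V, differed in the other direction under the inhibitor in reconstituted tumours. They made up 2.29 to 4.79% of all counts. Their summed level was 36300 to 49800 CPM in knockout controls, 29000 to 38300 CPM in knockout inhibitor libraries, 36000 to 43200 CPM in reconstituted controls and 22500 to 34100 CPM in reconstituted inhibitor libraries. The reconstituted inhibitor libraries all lay below the reconstituted controls. For the inhibitor in reconstituted tumours 11 of 13 were lower, with a median of -0.47 and 0 called, the largest being ND4L at -1.22 ± 0.37 (SE, edgeR adjusted p = 0.0749), where 79 of 80 nuclear members were higher. Their median was -0.06 for MAVS in controls. For the inhibitor in knockout tumours all 13 were lower (median -0.32), with 0 called by edgeR.

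Markers of other cell types were read in the same libraries. Fibroblast markers, 8 genes at 0 in no library, summed to 7840 to 18000 CPM in knockout controls, 7520 to 14700 CPM in knockout inhibitor libraries, 8480 to 8920 CPM in reconstituted controls and 2870 to 8780 CPM in reconstituted inhibitor libraries, lowest in replicate 1 of the last group, where the members were highest. In the inhibitor effect in reconstituted tumours all 8 had values below 0 (median -0.35) and 0 were called with edgeR. The markers of the epithelial tumour cells (9 genes, of which the lung transcription factor gene Nkx2-1 and the claudin gene Cldn7 had 0 counts in each library) summed to 6400 to 6820 CPM in reconstituted controls and 6940 to 10100 CPM in reconstituted inhibitor libraries, highest in replicate 1, and to 7510 to 7920 CPM in knockout controls. In that comparison 5 of 7 tested were higher (median 0.26) and 0 were called. The part of these cell types in the levels of the members was not tested.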

How the data were processed

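RNA of subcutaneous tumours was read in 4 groups of 3 libraries, made per the labels' protocols with a stranded mRNA kit after spin column extraction with a DNase step. Per gene and library the authors deposited whole-number counts under NCBI Gene IDs, and the values look raw rather than normalized. The tools Trimmomatic, HISAT2 and StringTie and the genome builds GRCm38 and mm10 are listed per the submitters' processing notes, without versions or roles. How strand and reads shared between genes were handled in counting is not stated in the labels.

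The members and lists were chosen with earlier results of these data known. All 12 libraries entered 1 edgeR 4.0.16 fit in R 4.3.3 with a mean per group, filterByExpr (17885 of 45777 genes kept), TMM factors of 0.920 to 1.03 and the quasi-likelihood F-test. Adjustment was Benjamini-Hochberg over all genes tested with calls at adjusted p below 0.05. CPM are counts scaled to 1000000 per library with TMM factors. DESeq2 1.42.0, other scalings, no filter, the 6 libraries of a comparison alone, leaving out each library and the replicate number as a block were alternatives, and removal of a length trend was added after seeing the data. Transcript lengths are medians over GENCODE M21 transcripts. A total of 3 counts, the limit that a count of 0 allows, covers counting error only. The edgeR step was tested on simulated data. No 2 libraries of a group agreed within sampling noise.

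Named with values were, per comparison, called members or else the 3 of smallest p, and the largest positive and negative difference in each complex. Also named were fixed isoform pairs and core subunits, members of extreme level per length, and called or fixed genes of other lists. Of the members that this rule names, a single gene is not reported here. Members named outside this rule (Ndufs3, Ndufs7, Ndufs8, Ndufv2, Ndufc1, Atp5j2, Atp5g1, Ndufa11, Ndufb4 and its copies, and the complex II genes) were chosen after their values were seen. The labels do not say whether replicate numbers pair the libraries. Over 18 same-numbered pairs the correlation of deviations from the group means ran from -0.24 to 0.46, with 9 above 0.1, which does not decide it.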

Additional observations from a re-analysis of the deposited data

Results flagged for a closer look

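Counts were also found on rows with a member name that are not annotated as protein coding and enter none of the comparisons, 11 rows in all, and in the study no library serves as a blank for them. Ndufs5-ps, a transcribed pseudogene, had at least 1232 counts in each library and up to 2240, where the gene Ndufs5 itself had 470 to 872 counts. Ndufb1-ps, listed as a long noncoding RNA, had at least 1785 and up to 3664 counts. Lower counts were found for the pseudogenes Atp5l2-ps, with at least 28 and up to 130, and Atp5pb-ps, with at least 17 and up to 71. These lowest values all lay above the 3 counts that a count of 0 allows. How reads shared between a gene and its copy were assigned was not tested, and the levels of Ndufs5 and Atp5pb are uncertain to that extent.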

How the results depend on the processing

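The edgeR test called 0 members in each of the 7 comparisons, and so did the other scalings, the fit without a count filter, the fits of 6 libraries and the replicate block. With the replicate block the member medians were 0.59 for the inhibitor in reconstituted tumours, -0.40 for MAVS in controls, 0.32 for MAVS under inhibition and 0.73 for the interaction. The block changed no call. Whether the numbers pair the libraries was not settled, with 7 of 12 libraries correlating best with their own number. DESeq2 called 63, 8, 1 and 35 members in these 4 comparisons in that order. Leaving out 1 library gave 0 to 70, 0, 0 to 36 and 0 to 64 called members, the upper values without reconstituted inhibitor replicate 3, and medians of 0.41 to 0.78, -0.47 to -0.28, 0.14 to 0.51 and 0.56 to 0.92. Removing the length trend, chosen after seeing the data, gave medians of 0.18, -0.11, 0.07 and 0.21.

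Of 2024 alternative values for 103 named results, 1929 kept direction and side of the threshold, 63 passed it only in the alternative and 32 changed sign, none of them a called value. The cause was not tested. These alternatives include fits without a library of a group that the comparison does not use. No named result was called in the main fit, and changes of size alone were not counted, so the 1929 do not measure how stable the sizes were. For the inhibitor in reconstituted tumours, removing the length trend gave -0.36 for Cox6b2, -0.07 for Atp5b and -0.05 for Atp5c1, and library totals gave -0.02 for Atp5b. Leaving out 1 library there changed the sign of Ndufs1 (0.01 without reconstituted inhibitor replicate 2, lowest -0.06), Cox6b2 (-0.37 to 0.37) and Atp5b (-0.02 to 0.10). For MAVS in controls the length fit gave 0.03 for Ndufa4, 0.19 for Cox6b2, 0.10 for Cox5b and 0.06 for Atp5b and Atp5c1, and library totals gave 0.03 for Atp5b. Leaving out 1 library there gave -0.05 to 0.01 for Atp5b, -0.39 to 1.07 for Cox6a2, -0.52 to 0.35 for Cox6b2 and -5.58 to 0.42 for Cox8b. In the other comparisons such ranges crossed 0 for Cox6a2 (-0.01 to 2.52) and Ndufa4l2 (-0.88 to 0.15) for MAVS under inhibition, Cox8b (-1.20 to 7.18) and Ndufa10 (-0.12 to 0.03) for the interaction, Atp5o (-0.06 to 0.11) and Uqcrb (-0.01 to 0.14) for MAVS averaged, Ndufa4l2 (-0.50 to 0.29) for the inhibitor averaged and Uqcrc1 (-0.05 to 0.10) for the inhibitor in knockout tumours. Precision is limited by 3 libraries a group and not by depth for the abundant members; Cox8b and Cox6b2 are limited by depth too.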

Other observations

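Other cell type markers differed between the groups without a call in the inhibitor effect in reconstituted tumours or the MAVS effect in controls (edgeR). Markers of T and NK cells summed to 35.8 to 49.2 CPM in reconstituted inhibitor libraries and 19.7 to 37.1 CPM in reconstituted controls, with 10 of 11 higher (median 0.95), and to 17.9 to 28.7 CPM in knockout controls. Macrophage markers were higher in 8 of 9 cases (median 0.18), at 1870 to 2340 CPM against 1360 to 1720 CPM. For MAVS in controls all 9 macrophage markers were lower (median -0.33). Red blood cell markers summed to 32.5 to 53.5 CPM in reconstituted controls, 49.4 to 237 CPM in knockout controls, 59.8 to 294 CPM in knockout inhibitor libraries and 50.6 to 112 CPM in reconstituted inhibitor libraries. Endothelial markers had medians of -0.27 for the inhibitor in reconstituted tumours and -0.10 for MAVS in controls, and pericyte markers of -0.44 and -0.08. Of 9 adipocyte markers 1 could be tested, at 0.16 and -0.41. In the MAVS effect averaged over treatments the epithelial markers Epcam and Cldn4, an adhesion molecule and a tight junction protein, were called lower in reconstituted tumours, by -0.35 ± 0.07 and -0.57 ± 0.11 (SE, edgeR adjusted p = 0.0310 and 0.0285). These were 2 of the 7 epithelial markers tested, against 1.56% of all genes called in either direction.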
